A study of Ciona robusta with 7 samples.

Results

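The genes described here are 6 genes of the extracellular matrix, among the 15231 gene rows of a single-cell RNA sequencing table from the juvenile heart of *Ciona robusta*, a tunicate. They are COL9A1/2/3 (KH.C8.248), THBS3/4 (KH.C6.164), ECM2 (KH.C5.633), SVEP1 (KH.C5.620), TIMP1/2/3/4 (KH.C5.581) and CSMD1/2/3 (KH.C5.32), and the slashes list the vertebrate genes to which a *Ciona* gene model was matched. The rows were taken by name or identifier, because earlier results of these data had placed them high in cells with transcripts of FOXF1/2 or MSX1/2/3. Their excess in those cells is therefore given as a description, without a test. The cells came from stage 38 juveniles grown at 18 °C, from which the Mesp+ lineage had been purified by cell sorting, and were sequenced by SMART-seq2 on 7 plates numbered 2 to 8. All plates formed 1 group, with no treatment or mutant, and no label says which animals a plate holds. The plates serve as replicates, and the spread between them may be partly technical.

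Cells were the 315 of 672 barcodes with 1000 or more genes, with 3318 to 2428125 reads each and a median of 148206. No doublet caller was run. The plates gave 13 to 85 kept cells. All 96 barcode sequences occurred among the kept cells, 94 of them on more than 1 plate, and they were treated as different cells. Levels are given in CPM, reads of a gene per 1000000 reads of a cell, or of the summed cells of a class on a plate. No gene lengths were used, so levels are compared between cells and never between genes.

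Extracellular matrix is the network of collagens, glycoproteins and proteoglycans that cells secrete around themselves, and in hearts much of it comes from non-muscle cells. Collagen IX belongs to the collagens that sit on the surface of fibrils, and thrombospondins are secreted glycoproteins that link matrix proteins, calcium and cells. ECM2 encodes a matrix protein with leucine-rich repeats, and SVEP1 a very large secreted adhesion protein that binds integrins in mammals. TIMP proteins inhibit the metalloproteases that cut matrix. CSMD proteins are large membrane proteins with CUB and sushi domains that act on complement in mammals. FOXF and MSX transcription factors are expressed in non-muscle mesoderm of many animals, and in *Ciona* the Mesp+ lineage also gives heart muscle and the EBF-dependent pharyngeal muscle.

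At least 1 read of FOXF1/2 or MSX1/2/3 was found in 104 cells, and the other 211 cells had none. The 104 cells numbered 1, 7, 30, 15, 2, 45 and 4 on plates 2 to 8. Of these cells, 28 had both genes, 29 FOXF1/2 only and 47 MSX1/2/3 only. The heart factor GATA4/5/6 was read in 69 of the 104 cells and in 68 of the other 211. However, 83 of the 104 also had a read of EBF1/2/3/4, the pharyngeal muscle factor, and 13 had the muscle myosin MYH1/2 at 500 CPM or more. A read of EBF1/2/3/4 was also found in 18 of the 26 other cells with MYH1/2 at that level. A single read is thus a loose criterion in this table. A criterion of 3 reads of either gene left 55 cells, with 1, 5, 12, 7, 2, 25 and 3 on plates 2 to 8. In these 55 cells EBF1/2/3/4 stood at 13.9 CPM. It stood at 473 CPM in the 49 cells in which neither gene reached 3 reads. The label of non-muscle heart mesoderm fits the markers of the 55 cells better than those of the 104. MYH1/2 was still at 162 CPM in the summed reads of the 55 cells, against 281 CPM in all remaining cells. Per cell the order was the reverse. MYH1/2 was read in 37 of the 55 cells, with a median of 12.1 CPM, and in 136 of the 260 remaining cells, with a median of 1.70 CPM. Among neural and ciliary markers, SYT1/2 was read in 23 of the 104 cells and 45 of the 211, and TEKT1 in 11 of the 104 and 28 of the 211. The part of these other transcripts in the results below was not tested.

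The matrix genes followed the depth of the class markers. THBS3/4 stood at 40.2 CPM in the 211 cells with no read of FOXF1/2 or MSX1/2/3, at 22.0 CPM in the 38 cells with 1 read, at 106 CPM in the 8 cells with 2, at 1149 CPM in the 9 cells with 3 to 9 and at 1645 CPM in the 49 cells with 10 or more. The step lay between 2 and 3 reads. COL9A1/2/3 stood at 127, 50.4, 346, 1222 and 1168 CPM over the same steps. SVEP1 stood at 6.77, 1.22, 3.80, 385 and 309 CPM. In summed reads, cells with a single read of a class marker lay below cells with none for these 3 genes. The medians per cell did not follow this: THBS3/4 had a median of 5.29 CPM with 1 read and 2.41 CPM with none, COL9A1/2/3 had 12.4 CPM with 1 read and 9.50 CPM with none, and SVEP1 had 0 in both. The cells with 1 read were also deep, with a median of 304982 reads, against 107892 in cells with 10 or more. TIMP1/2/3/4 stood at 254, 135, 374, 2150.2 and 3203 CPM, and CSMD1/2/3 at 6.67, 1.96, 10.1, 128 and 158 CPM. ECM2, the member with the fewest reads, stood at 1.05, 1.49, 0.633, 7.08 and 23.7 CPM. All 6 genes were higher in the cells with 10 or more marker reads than in those with none.

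**Figure D1:**
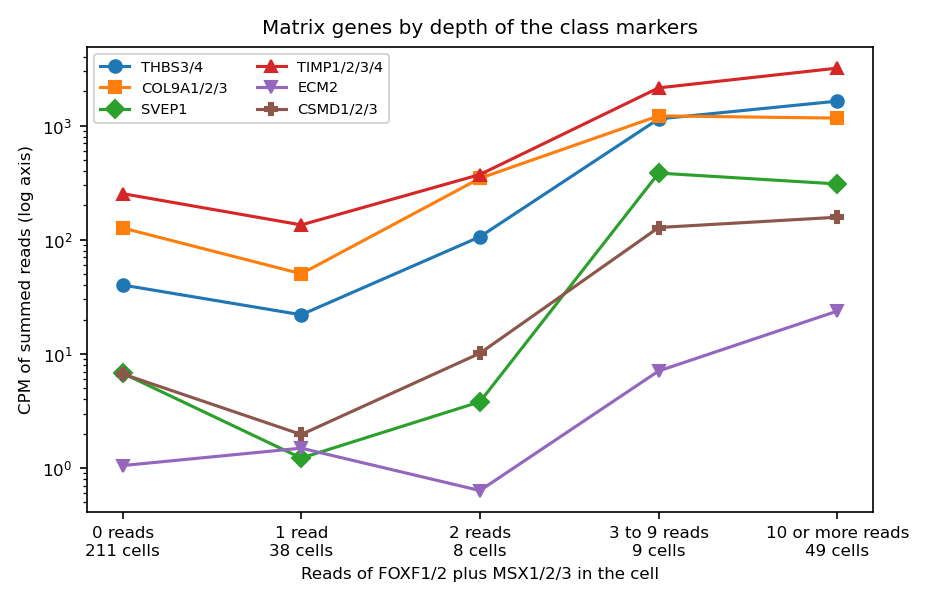
Level of each matrix gene in CPM of summed reads (log axis) in cells grouped by their reads of FOXF1/2 plus MSX1/2/3. THBS3/4 stands at 40.2 CPM in cells with none, at 22.0 CPM in cells with 1 read and at 1149 CPM in cells with 3 to 9 reads.

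Plates 3, 4, 5 and 7 held at least 5 cells on each side. COL9A1/2/3 stood on these plates at 416, 878, 636 and 507 CPM in the FOXF1/2 or MSX1/2/3 cells and at 223, 143, 187 and 49.8 CPM in the other cells. Its means were 609 ± 200.3 CPM in the FOXF1/2 or MSX1/2/3 cells and 151 ± 74.7 CPM in the others (SD, n = 4 plates). THBS3/4 stood at 449, 1118, 839.7 and 641 CPM in the FOXF1/2 or MSX1/2/3 cells and at 183, 55.8, 23.7 and 52.1 CPM in the others. Neither gene's groups overlapped. The mean of THBS3/4 was 762 ± 286 CPM, against 78.8 ± 71.3 CPM in the others, a ratio of 9.67. Without plate 3, where the others were highest, the ratio of THBS3/4 was 19.7 (866 against 43.9 CPM). The ratio of COL9A1/2/3 was 4.04, and 3.39 to 5.31 with 1 plate left out.

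ECM2 stood at 67.8, 15.4, 10.3 and 6.39 CPM in the FOXF1/2 or MSX1/2/3 cells, and at 0, 0, 1.12 and 0 CPM in the others. Plate 3 stood well above the others, and without it the mean of ECM2 was 10.7 CPM in place of 24.98 ± 28.8 CPM (SD, n = 4 plates). SVEP1 stood at 343, 42.8, 85.5 and 263 CPM in the FOXF1/2 or MSX1/2/3 cells and at 4.84, 12.7, 0.459 and 20.4 CPM in the others. Its spread over plates was wide, with means of 184 ± 143 CPM in the FOXF1/2 or MSX1/2/3 cells and 9.60 ± 8.80 CPM in the others (SD, n = 4 plates).

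TIMP1/2/3/4 stood at 855, 732, 1343 and 2352 CPM in the FOXF1/2 or MSX1/2/3 cells and at 136, 146, 414 and 298 CPM in the other cells. CSMD1/2/3 stood at 211, 39.6, 52.7 and 113 CPM, against 0.372, 10.3, 1.22 and 21.6 CPM in the others. Without plate 3 its mean was 68.4 CPM in place of 104 ± 78.0 CPM (SD, n = 4 plates). For all 6 genes the lowest FOXF1/2 or MSX1/2/3 plate lay above the highest plate of the other cells. Of all 10977 genes tested between these cells, 1.81% were higher in the same way, without overlap over the 4 plates, and 0.0729% passed the fit. The 6 genes had been chosen in this contrast and nothing is read from their count. On all 7 plates, COL9A1/2/3, THBS3/4 and TIMP1/2/3/4 were higher in the FOXF1/2 or MSX1/2/3 cells on 7, SVEP1 and ECM2 on 5, and CSMD1/2/3 on 4.

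The criterion of 3 reads gave higher means for all 6 genes. By that criterion 1.73% of 10489 genes passed in the fit of these cells against all others, and for the same reason nothing is read from it for the members. THBS3/4 then averaged 2127 ± 1375 CPM, against 74.3 ± 63.9 CPM in all other cells (SD, n = 4 plates). COL9A1/2/3 averaged 1594 ± 1013 CPM, against 147 ± 52.5 CPM in the others, and TIMP1/2/3/4 averaged 2995 ± 1286 CPM, against 244 ± 138 CPM in the others. The SDs of the FOXF1/2 or MSX1/2/3 cells grew with the means. SVEP1 averaged 399 ± 256 CPM, against 12.9 ± 16.8 CPM in the others. CSMD1/2/3 averaged 234 ± 155 CPM, against 8.67 ± 10.9 CPM in the others, and ECM2 61.0 ± 60.4 CPM, against 0.629 ± 0.776 CPM in the others.

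Levels also varied between single cells. Among the 55 cells with 3 reads, TIMP1/2/3/4 had a median of 2808 CPM and a highest value of 14524 CPM, THBS3/4 a median of 1018 CPM and COL9A1/2/3 a median of 660.4 CPM. The medians of the 49 cells below 3 reads were 23.5, 5.99 and 14.4 CPM for the same genes. SVEP1 and ECM2 had a median of 0 in both sets. CSMD1/2/3 had a median of 44.0 CPM in the 55 cells and 0 in the 49. Single cells carried much of the reads of a gene: the top cell held 33.2% of those of SVEP1 and 29.6% of those of CSMD1/2/3 over all kept cells.

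**Figure D2:**
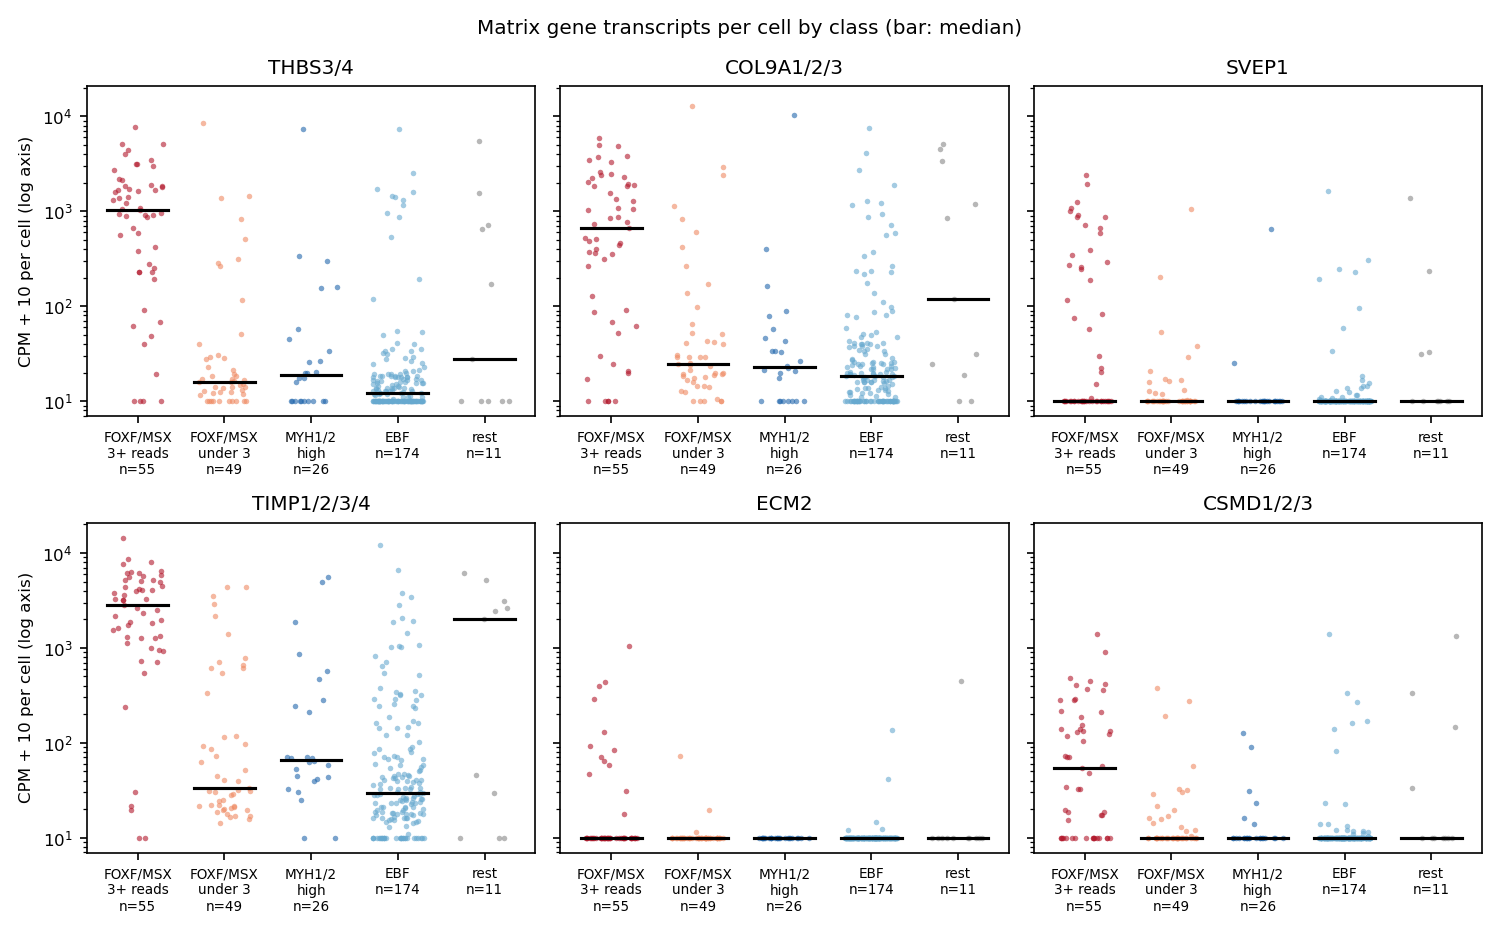
CPM plus 10 of each matrix gene per cell (log axis), in cells with 3 or more reads of FOXF1/2 or MSX1/2/3, cells with fewer reads of these genes, and the other cells split by MYH1/2 at 500 CPM or more, a read of EBF1/2/3/4, or neither. Bars are medians; that of TIMP1/2/3/4 lies at 2808 CPM in the 55 cells of the left column and at 23.5 CPM in the 49 cells next to it, before the 10 CPM are added.

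High levels of several matrix genes in 1 cell were most frequent among the cells with 3 marker reads. At least 3 of the 6 stood at 100 CPM or more in 41 of the 55 cells with 3 reads, in 9 of the 49 below that and in 14 of the 211 without a read of either marker. These 14 comprised 9 cells with an EBF1/2/3/4 read, 1 with high MYH1/2 and 4 of the 11 cells with neither. They were shallow, with a median of 45922 reads, against 110833 in the 41 cells. These 11 cells had no FOXF1/2, MSX1/2/3 or EBF1/2/3/4 read and MYH1/2 under 500 CPM. In their summed reads COL9A1/2/3 stood at 1045 CPM and TIMP1/2/3/4 at 2007 CPM, against 592 and 1542 CPM in the 104 cells. SVEP1 (218 against 149 CPM), CSMD1/2/3 (222 against 74.2 CPM) and ECM2 (27.0 against 11.2 CPM) were also higher. THBS3/4 was lower (665 against 766 CPM), and the ECM2 reads came from 1 of the 11 cells. Of the 14 cells, 4 had EBF1/2/3/4 at 100 CPM or more, as had 2 of the 41. Whether the 14 lacked the FOXF1/2 or MSX1/2/3 transcripts or only a read of them was not tested.

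Detection of at least 1 read was less selective than level. It was 90 of 104 FOXF1/2 or MSX1/2/3 cells against 119 of 211 others for THBS3/4, 94 against 150 for COL9A1/2/3 and 102 against 177 for TIMP1/2/3/4. In the 26 cells with high MYH1/2, a muscle class, THBS3/4 was still read in 61.5% at a median depth of 105283 reads, against 86.5% of the 104 cells at 139859 reads. In the 285 barcodes with under 200 genes, TIMP1/2/3/4 had 6 reads, COL9A1/2/3 had 1 and the other members had 0. After thinning to 20000 reads a cell, THBS3/4 was read in 63 of 100 FOXF1/2 or MSX1/2/3 cells against 34 of 204 others. SVEP1 was read in 42 of 104 cells against 29 of 211, CSMD1/2/3 in 56 against 30 and ECM2 in 16 against 6. No ECM2 read occurred in the 26 cells with high MYH1/2, which allows a share of cells with a read of up to 11.5% (3 counts of the total) or 13.2% (exact 95% interval). At least 4 of the 6 genes were read in 58.7% of the 104 cells and in 19.4% of the 211. After thinning these shares were 37.0% of 100 cells and 6.37% of 204, with 11 shallower cells left out.

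Within the 104 cells, detection said little about pairs of the common genes, since nearly every cell had a read of each. THBS3/4 and COL9A1/2/3 were read together in 81 cells, with 81.2 expected from their shares on each plate. SVEP1 was read with ECM2 in 10 cells where 6.13 were expected, and with CSMD1/2/3 in 33 where 25.3 were expected. The first pair had the highest ratio of observed to expected cells (1.63) and the second the largest excess in cells. After thinning, SVEP1 and CSMD1/2/3 met in 22 of 100 cells with 10.8 expected. With members counted from 3 reads, they met in 23 of 104 cells, with 10.4 expected. In the 55 cells with 3 marker reads the 2 were read together in 24, with 20.2 expected. The excess of SVEP1 with ECM2 there was 8 cells with 6.12 expected.

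Levels within plates were ordered alike. Over plates 4, 5 and 7, with 90 of the 104 cells, the mean Spearman correlation of CPM was highest for THBS3/4 with TIMP1/2/3/4 (0.75) and TIMP1/2/3/4 with CSMD1/2/3 (0.72). It was lowest for COL9A1/2/3 with ECM2 (0.15). The cells of a plate share a library pool, and cells with and without many marker reads are mixed in it. Within the cells with 3 marker reads, on plates 4 and 7 with 12 and 25 cells, most correlations were lower. SVEP1 with CSMD1/2/3 was highest there (0.62, with 0.71 and 0.53 on plates 4 and 7). TIMP1/2/3/4 with CSMD1/2/3 followed (0.56), and THBS3/4 with COL9A1/2/3 stood at 0.42. COL9A1/2/3 with SVEP1 was at -0.04 and ECM2 with TIMP1/2/3/4 at -0.10, with -0.41 and 0.22 on plates 4 and 7. The order thus put CSMD1/2/3 beside SVEP1 and TIMP1/2/3/4. ECM2 was highest with THBS3/4 (0.31), but it was read in only 2 of the 12 cells on plate 4 and 3 of the 25 on plate 7. Most of its values are ties without a read, so its correlations cannot place it in the order.

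**Figure D3:**
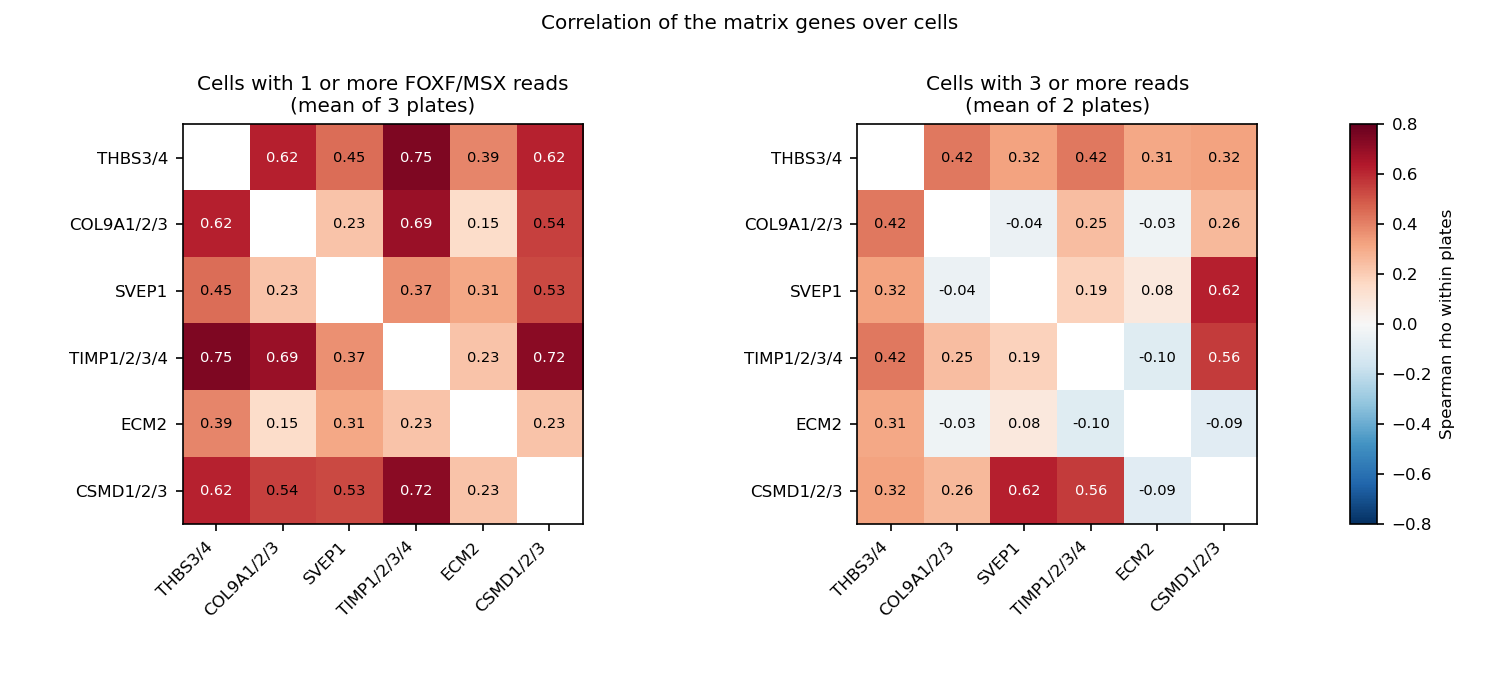
Spearman correlation of CPM between the matrix genes over cells, as the mean of values within plates, for all FOXF1/2 or MSX1/2/3 cells (left) and those with 3 or more reads of either gene (right). THBS3/4 with TIMP1/2/3/4 is highest on the left at 0.75, and SVEP1 with CSMD1/2/3 on the right at 0.62.

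The genes whose levels lay nearest to each member were found over 5435 genes read in at least 20% of the 104 cells. MATN1/3/4 (KH.C1.356), a matrilin that bridges matrix fibrils, was among the nearest 3 for CSMD1/2/3 (0.71), TIMP1/2/3/4 (0.67), THBS3/4 (0.62) and COL9A1/2/3 (0.56). Over the cells with 3 marker reads it ranked 185, 90, 465 and 61 of 4977 for the same genes. The tropomyosin TPM1/2 (KH.C7.260) was among the nearest 3 for THBS3/4 (0.63) and SVEP1 (0.47). Over the cells with 3 marker reads TPM1/2 ranked 665 and 413 for them. ZNFX1 (KH.C3.223) was nearest to THBS3/4 (0.65). RPS29 (KH.C1.115) and a claudin row (KH.C11.378) were among the nearest 3 for CSMD1/2/3 (0.53 and 0.51). TIMP4 (KH.C5.232), another inhibitor of metalloproteases, was near TIMP1/2/3/4 in both sets (0.63 and 0.57). SVEP1 was nearest to the Wnt receptor gene FZD4 (KH.C6.162, 0.50), and WNT5B (KH.L152.45), a Wnt ligand, ranked 3 for ECM2 (0.45). Over the cells with 3 marker reads these Wnt genes ranked 467 (0.34) and 626 (0.34) of 4977. For CSMD1/2/3 the class gene FOXF1/2 ranked 3 over the cells with 3 reads (0.60). These cells were chosen by their FOXF1/2 or MSX1/2/3 reads, and CSMD1/2/3 as a gene high in such cells. Nothing is therefore read from this rank. EXOC5 (KH.L96.57), a subunit of the exocyst that tethers secretory vesicles, was near ECM2 in both sets (0.48 and 0.74). All correlations of ECM2 rest on few cells with a read: 2 of 30, 4 of 15 and 5 of 45 on plates 4, 5 and 7. Among cells with 3 marker reads these were 2 of 12 on plate 4 and 3 of 25 on plate 7. EXOC5 itself stood at 14.5 CPM both in the 104 cells and in the others.

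The 55 cells were split by which class gene reached 3 reads, so that a cell with FOXF1/2 only could still hold 1 or 2 reads of MSX1/2/3, as 5 of 18 did. None of the 23 cells with MSX1/2/3 only held a FOXF1/2 read. The rarer members were read at different shares in these cells. ECM2 was read in 8 of 23 cells with MSX1/2/3 only and in 5 of 14 with both, and in 0 of 18 with FOXF1/2 only, which allows a share of cells with a read of up to 16.7% (3 counts of the total) or 18.5% (exact 95% interval). The 8 cells lay on 5 plates. CSMD1/2/3 was read in 15 of 18 FOXF1/2-only cells (83.3%, exact 95% interval 58.6 to 96.4%) and in 11 of 23 MSX1/2/3-only cells (47.8%, 26.8 to 69.4%). SVEP1 was read in 9 of 18 FOXF1/2-only cells, in 12 of 14 with both and in 6 of 23 MSX1/2/3-only cells. NKX2-3, the heart factor Nk4 of *Ciona*, was read in 15 of 18 FOXF1/2-only cells and 2 of 23 MSX1/2/3-only cells. In the 13 FOXF1/2-only cells without any MSX1/2/3 read, an alternative chosen after seeing the data, ECM2 was read in 0, CSMD1/2/3 in 10, SVEP1 in 5 and NKX2-3 in 10. Median depth was 110550.0 reads in the FOXF1/2-only cells and 79509 in the MSX1/2/3-only cells. Intervals cover counting error only, and cells of a plate are not replicates.

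**Figure D4:**
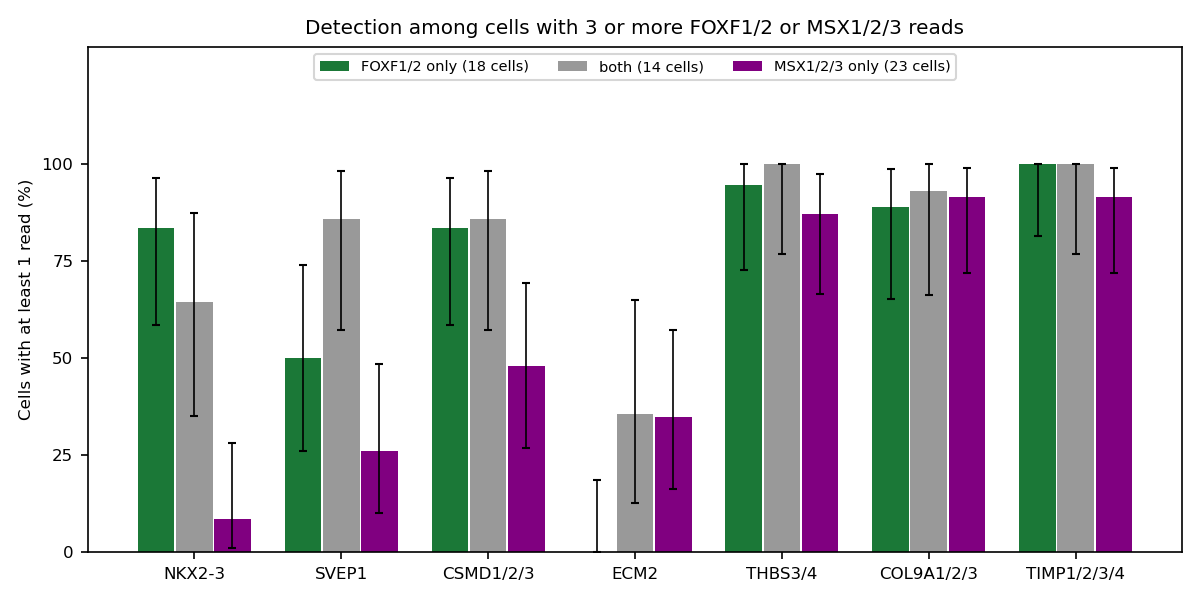
Share of cells with at least 1 read of NKX2-3 and of each matrix gene, in percent, among cells in which only FOXF1/2, both genes or only MSX1/2/3 reached 3 reads, with exact 95% binomial intervals. ECM2 is at 0 of 18 cells with FOXF1/2 only and at 8 of 23 with MSX1/2/3 only.

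The 4 comparisons inside the 104 cells did not use the contrast that chose the genes. Reads were summed per plate and side and tested with edgeR over all genes, with the plate as a block and Benjamini-Hochberg adjustment. Where sides were cut by 1 read, plates 4, 5 and 7 had at least 5 cells on each side. No member passed in the comparisons by NKX2-3, by FOXF1/2 or MSX1/2/3 only, or by PCNA (edgeR, adjusted p under 0.05). By an unadjusted p under 0.05 (edgeR) there were 2 members for NKX2-3, 0 for FOXF1/2 only and 1 for PCNA, and DESeq2 passed 0 in each. Over all genes tested, 387 of 9282, 200 of 8695 and 710 of 9211 had such an unadjusted p in the same 3 comparisons (edgeR).

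Between cells with and without an NKX2-3 read, 0.0754% of 9282 genes passed, 6 higher and 1 lower. CSMD1/2/3 stood at 76.4, 62.9 and 144 CPM in the cells with NKX2-3 and at 9.23, 30.2 and 18.1 CPM in those without. The groups did not overlap, as for 6.85% of all genes tested that were higher in this way, and the log2 fold change was 2.43 ± 0.72 (SE; adjusted p = 0.922, edgeR). SVEP1 stood at 82.2, 66.5 and 347 CPM with NKX2-3 and at 10.2, 128 and 12.6 CPM without it (2.51 ± 1.12). THBS3/4 stood at 2327, 743 and 769 CPM with it and at 117, 1054 and 256 CPM without it (1.79 ± 0.79). Plate 5 went against the other plates for SVEP1, THBS3/4, TIMP1/2/3/4 and COL9A1/2/3. TIMP1/2/3/4 stood at 1283, 1304 and 2779.8 CPM with NKX2-3 and at 276, 1429 and 1073 CPM without it, with the groups overlapping (1.21 ± 0.39; adjusted p = 0.977, edgeR). COL9A1/2/3 stood at 1867, 528 and 559 CPM with NKX2-3 and at 58.4, 875 and 350 CPM without it (1.40 ± 0.98). ECM2 differed by -0.94 ± 1.86. These values rested on single plates. Without plate 4, THBS3/4 was at 0.68, COL9A1/2/3 at 0.11 and TIMP1/2/3/4 at 0.76. Without plate 7, SVEP1 was at 1.14 and COL9A1/2/3 at 2.25. Without plate 5, THBS3/4 was at 2.92, COL9A1/2/3 at 2.79 and SVEP1 at 3.86. No member passed in any of these fits, the lowest adjusted p being 0.0958 for TIMP1/2/3/4 without plate 5 (edgeR). The cells with NKX2-3 were deeper, at a median of 200642 reads against 106704 in those without, and had more MYH1/2 (467 against 89.0 CPM) and less EBF1/2/3/4 (170.2 against 401 CPM). The part of these differences was not tested.

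In the cells with FOXF1/2 only against those with MSX1/2/3 only, 0.104% of 8695 genes passed, all 9 higher. ECM2 stood at 0, 0 and 9.92 CPM in the FOXF1/2-only cells and at 9.05, 13.4 and 11.9 CPM in the MSX1/2/3-only cells, lower on 3 of 3 plates (-4.95 ± 3.86). The groups overlapped, since 9.92 CPM on plate 7 lay above 9.05 CPM on plate 4, and 1 FOXF1/2-only cell held all reads of that side. COL9A1/2/3 stood at 254, 350.4 and 474 CPM in the FOXF1/2-only cells and at 44.8, 291 and 343 CPM in the MSX1/2/3-only cells (1.15 ± 0.61). CSMD1/2/3 stood at 9.99, 24.9 and 74.2 CPM in the FOXF1/2-only cells and at 1.88, 13.8 and 30.1 CPM in the MSX1/2/3-only cells (1.59 ± 1.35). Both were higher on 3 of 3 plates. THBS3/4 differed by 0.17 ± 0.55, TIMP1/2/3/4 by 0.15 ± 0.54 and SVEP1 by -1.17 ± 1.38. The adjusted p of each of the 6 was 1 (edgeR). EBF1/2/3/4 stood at 252 CPM in the FOXF1/2-only cells and 483 CPM in the MSX1/2/3-only cells, and its part was not tested.

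PCNA encodes the sliding clamp of DNA replication. In cells with a PCNA read against cells without, 0.434% of 9211 genes passed, 38 higher and 2 lower. The median log2 fold change of all genes was 1.22, and cells with PCNA were deeper, at a median of 206955 reads against 103203. The prior degrees of freedom in this fit were infinite, so the spread was pooled over genes. TIMP1/2/3/4 stood at 649, 1102 and 2409 CPM with PCNA and at 1472, 3542 and 2155 CPM without it (-0.74 ± 0.37; adjusted p = 0.615, edgeR). SVEP1 stood at 30.2, 50.8 and 285 CPM with PCNA and at 155, 403 and 189 CPM without it (-1.48 ± 0.80). Both were lower on plates 4 and 5 and higher on plate 7. ECM2 was lower with PCNA on 3 of 3 plates (-1.70 ± 2.09), and THBS3/4, COL9A1/2/3 and CSMD1/2/3 lay within 0.1 of 0. All 6 lay below the median of all genes. EBF1/2/3/4 stood at 305 CPM in cells with PCNA and 89.6 CPM in those without, and MYH1/2 at 208 CPM with PCNA and 777 CPM without it, and their part was not tested.

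MMP21 and DACH1/2 mark the first and the second heart lineage of *Ciona*. No plate had 5 cells on each side, and with 3 cells a side in place of 5, plates 4 and 7 gave 3 and 4 cells with MMP21 only and 8 and 11 with DACH1/2 only. In that fit 0.833% of 6245 genes passed, 5 higher and 47 lower, with a median of -1.62 over all genes and infinite prior degrees of freedom. COL9A1/2/3 was the 1 member that passed, and it was lower. It stood at 102 and 264 CPM in the cells with MMP21 only, against 1367 and 777 CPM in those with DACH1/2 only (-3.08 ± 0.73, adjusted p = 0.00566, edgeR). The groups did not overlap, as for 31.1% of all genes tested that were lower in this way, and the call was lost with DESeq2 (adjusted p = 0.963), with RLE size factors (0.202, edgeR) and without the plate block (0.255, edgeR). THBS3/4 stood at 1103 and 338 CPM in the cells with MMP21 only, against 1707 and 657 CPM with DACH1/2 only (-1.24 ± 0.53, adjusted p = 0.948, edgeR). SVEP1 stood at 221 and 437 CPM in the cells with MMP21 only, against 18.6 and 345 CPM with DACH1/2 only, in the direction opposite to COL9A1/2/3, but did not pass. TIMP1/2/3/4 differed by 0.17 ± 0.41 and CSMD1/2/3 by 0.55 ± 2.23. MYH1/2 stood at 1009 CPM in all 9 cells with MMP21 only and at 58.7 CPM in all 27 with DACH1/2 only, whose median depths were 113207 and 194329 reads, and the part of either was not tested.

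**Figure D5:**
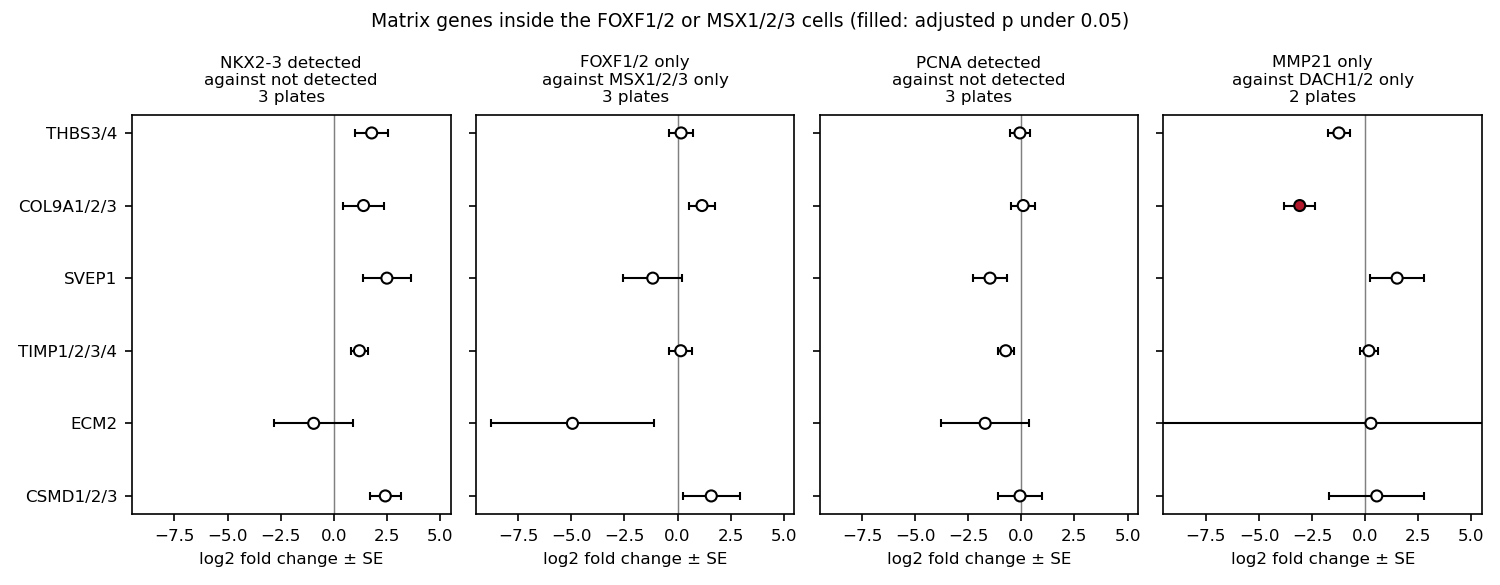
Log2 fold change ± SE of each matrix gene in 4 comparisons inside the FOXF1/2 or MSX1/2/3 cells (edgeR on reads summed per plate and side). Only COL9A1/2/3 between MMP21 and DACH1/2 cells is filled (-3.08), and the bar of ECM2 in that panel runs past the axis.

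The other matrix genes of the table gave a background for the 6. A list by role held 252 of them. Between cells with and without NKX2-3, 3 of 114 tested passed, all higher, and all were rows named HMCN1, the hemicentin of basement membranes, a name that 25 rows share. HMCN1 (KH.C11.390) averaged 319 CPM with NKX2-3 and 1.15 CPM without it (adjusted p = 0.0414, edgeR; higher on 2 of 3 plates), and HMCN1 (KH.C6.78) averaged 196 CPM with it and 2.04 CPM without it (adjusted p = 0.0429, edgeR). The median log2 fold change was 0.89 for the list and 0.24 for all genes. Between FOXF1/2 only and MSX1/2/3 only, 3 of 106 passed, all higher. HMCN1 (KH.C11.390) and HMCN1 (KH.C6.50) had the lowest adjusted p (0.0109 for each, edgeR, each higher on 2 of 3 plates). The third was TLL1/2 (KH.C2.1070), a tolloid protease that trims procollagen. It stood at 210.05 CPM in the FOXF1/2-only cells against 0.831 CPM in the MSX1/2/3-only cells (adjusted p = 0.0455, edgeR, 2 of 3 plates). Between cells with and without PCNA, 3 of 111 passed, all higher and named HMCN1. The row KH.C11.390 passed by NKX2-3, by FOXF1/2 only and by PCNA, each time higher on 2 of 3 plates. Reads of similar HMCN1 rows may have been split by the counting. With thinned reads no gene at all passed for NKX2-3 or PCNA, without the plate block none passed for NKX2-3 or FOXF1/2 only, and with RLE size factors none passed for NKX2-3 (edgeR). The 16 other collagens tested between FOXF1/2-only and MSX1/2/3-only cells had a median of 1.12, beside 1.15 for COL9A1/2/3, which was 0.53 without plate 4. Between FOXF1/2 or MSX1/2/3 cells and the others, 0 of 151 list genes passed and 32 had an unadjusted p under 0.05 (edgeR, the 1 tool run there), with a median of 0.37 against -0.04 for all genes. Of all 10977 genes tested there, 602 had such an unadjusted p (edgeR).

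Relatives of the members did not share their pattern alike. TIMP4 (KH.C5.232) stood at 594 CPM in the 104 cells and 122 CPM in the others, in the direction of TIMP1/2/3/4. SVEP1 is the name of 9 rows, and 1 of them, KH.C3.952, picked after its values were seen, stood at 102 CPM in the 104 cells and 316 CPM in the others, opposite to the member KH.C5.620 (149 CPM in the 104 cells and 6.77 CPM in the others). A further SVEP1 row, KH.C7.384, went with the member at 3.67 CPM in the 104 cells and 0.381 CPM in the others. CSMD3 (KH.C4.7) stood at 31.9 CPM in the 104 cells and 50.8 CPM in the others, and at 2.54 CPM in the 55 cells with 3 marker reads. Another CSMD3 row, KH.C13.129, went with CSMD1/2/3, at 10.4 CPM in the 104 cells, 1.16 CPM in the others and 11.5 CPM in the 55. Another row named THBS3/4, KH.C3.117, had 25 reads in the 104 cells and 66 in the others. THBS1/2 (KH.C6.12) had 117 reads in the 104 cells and 11 in the others. The rows given are a choice among more relatives, made after their values were seen.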

How the data were processed

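The authors' deposited table holds raw read counts per gene and barcode. The submitters' processing notes name featureCounts, the column headers name TopHat, and the row names are KH2013 gene models; versions, settings, strand and genome build are not given in the sources used here. SMART-seq2 reads carry no molecular identifiers, so intervals cover counting error only. The 5 reporter rows were left out, and no doublet caller was run. CPM were computed per cell or from reads summed per plate and class (numpy 2.4.6, pandas 2.3.3, scipy 1.17.1). Tests used edgeR 4.0.16 in R 4.3.3 (quasi-likelihood, TMM, filterByExpr, plate block); calls were made below an adjusted p of 0.05, and each SE comes from the test statistic. DESeq2 1.42.0 was an alternative. The comparison by MMP21 and DACH1/2 was designed for 5 cells a side and run with 3. The fits were also run on simulated counts with 200 changed genes. These counts were drawn per plate and side and not per cell. Nothing is read from them on whether a change of a member would be found. The members, lists and contrasts were chosen with earlier results of these data known. From the name-matched matrix list, 15 accidental names were removed after the names were seen. Named other genes are the 3 nearest by correlation to each member and up to 4 passing list genes per comparison. Of the nearest genes the text gives only some, chosen after their values were seen. Both sides of a comparison come from the same plates, which is why the plate is the block.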

Additional observations from a re-analysis of the deposited data

Results flagged for a closer look

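ECM2 was checked for an outlying plate in 12 groups of 4 plates together with the other members, and chance picks out about 1 in 20 such groups. In the FOXF1/2 or MSX1/2/3 cells, plate 3 stood at 67.8 CPM of ECM2, far from the other 3 plates. In the other cells, plate 5 stood at 1.12 CPM and the rest of the 4 plates at 0. With the rest at 0 any plate with a read is picked out, so the rate of 1 in 20 does not hold there. The value came from 22 reads in 3 of 66 cells. The 72 barcodes with 200 genes or more but under 1000, which were left out of all comparisons, held reads of 5 members above the limit of 1.98 CPM that a count of 0 allows. THBS3/4 stood there at 312 CPM, TIMP1/2/3/4 at 321 CPM, COL9A1/2/3 at 152 CPM, CSMD1/2/3 at 5.29 CPM and SVEP1 at 3.31 CPM.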

How the results depend on the processing

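Of 202 member fold changes under alternatives, 180 kept their direction and side of the threshold, 19 reversed and 3 lost the call. The lost calls were all COL9A1/2/3 between MMP21 and DACH1/2 cells. The cause of the changes below was not tested. For NKX2-3, the 7 passing genes became 0 with thinning, RLE or no replicate block, 179 with DESeq2 and 37 with no filter, and 0 to 26 with a plate left out (26 without plate 5, 0 without plate 7), where ECM2 ran from -2.14 to 0.10, with 0.02 without plate 7. For FOXF1/2 only, the 9 became 105 with DESeq2, 15 with RLE, 42 with no filter and 0 with no replicate block, and 8 to 38 with a plate left out (38 and 25 without plates 4 and 5). There THBS3/4 ran from -0.064 to 0.57, SVEP1 from -2.87 to 0.31 and TIMP1/2/3/4 from -0.47 to 0.81. For PCNA, the 40 became 202 with DESeq2, 0 with thinning, 1 with no replicate block and 12 with 3 reads and 3 cells, and 13 to 84 with a plate left out (84 and 13 without plates 5 and 7). COL9A1/2/3 was -0.10 with DESeq2, -0.11 with RLE, -0.49 with no replicate block and -1.26 to 1.498 with a plate left out. THBS3/4 was 0.93, TIMP1/2/3/4 0.22 and CSMD1/2/3 0.56 with thinning. THBS3/4 ran from -0.59 to 0.72 and CSMD1/2/3 from -0.32 to 0.15 with a plate left out. They were 1.30 and 0.78 with 3 reads and 3 cells, where SVEP1 was 0.063. For MMP21, the 52 became 1 with DESeq2, 13 with RLE and 0 with no replicate block, where ECM2 was -0.15. Between FOXF1/2 or MSX1/2/3 and other cells, 8 became 124 with thinning and 181 with 3 reads, and 0 to 28 with a plate left out (0 without plate 3 or 7, 19 and 28 without plates 4 and 5). Of 54 level values, 11 moved by more than 1 SD, 6 of them with the 3-read criterion. The 3-read cells in co-detection, correlations, nearest genes and the fit of all cells, and the combined settings, were chosen after seeing the data. Fits without EBF1/2/3/4 or MYH1/2 cells, thinned FOXF1/2 and MMP21 fits and some 3-read fits were not run, as too few plates remained.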

Other observations

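Of the 6 member identifiers, 4 begin with KH.C5, as do 656 of the 15231 rows (4.31%). The TIMP4 row near TIMP1/2/3/4 also begins with KH.C5. No coordinates were used, and their distance was not analysed here. Among the 104 FOXF1/2 or MSX1/2/3 cells, 9 had reads of SVEP1, ECM2 and CSMD1/2/3 together and 35 had none of the 3.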
